A study of Saccharomyces cerevisiae with 4 samples.

Results

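The loss of XRN1 was examined in budding yeast, Saccharomyces cerevisiae, that carried a rebuilt RNA interference (RNAi) pathway. The comparison took all 5798 gene identifiers of the deposited table in 2 of its 4 libraries, 1 library per genotype. The library called xrn1 RNAi came from strain YAM1982, which had an XRN1 deletion together with DCR1 and AGO1. The library called RNAi came from strain YAM1725, which carried DCR1 and AGO1. DCR1 and AGO1 were therefore present on both sides of the comparison. As context, the same deletion without the added pathway is given by the library xrn1, from strain YAM2271, and its wild-type counterpart WT, from strain YAM1730. The labels name neither the promoters and genomic sites of the added genes nor the other markers of the strains.

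Xrn1 is the main cytoplasmic exoribonuclease that degrades RNA from the 5′ end, usually after the cap has been removed. Besides messenger RNAs it degrades many unstable noncoding RNAs, including antisense transcripts that would otherwise be short-lived. S. cerevisiae has lost its own RNAi machinery. DCR1 encodes Dicer, the enzyme that makes small RNAs out of double-stranded RNA, and AGO1 encodes Argonaute, which carries them, so that in a rebuilt pathway small RNAs come from places where complementary transcripts pair. Genes that point towards each other, called convergent, can give such pairs where their transcripts run past each other's ends.

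RNA of 10 to 40 nucleotides had been sequenced. The listed genes held 7686801 reads in xrn1 RNAi and 1801407 in RNAi, 2825322 in xrn1 and 627607 in WT, so the RNAi library was the shallower of the 2 compared. Values keep the scale of the deposited table. A single read contributes 0.0762 in xrn1 RNAi and 0.318 in RNAi, 0.330 in xrn1 and 1 in WT. They are not divided by gene length unless a value per kilobase of coding sequence is named. Since each genotype has 1 library, the differences have no replicate check and none was tested across libraries. Intervals are exact 95% intervals of counting error alone, which is smaller than the spread between cultures would be. Words such as higher, rose, lower and fell describe 2 libraries.

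XRN1 itself, YGL173C at chrVII:175527-180113 on the minus strand, had 0 reads in xrn1 RNAi and 39 reads in RNAi. A count of 0 allows up to 3 reads, a value of 0.229, against a value of 12.4 in RNAi (Poisson interval 8.81 to 16.9). With this limit of 3 reads and the low end of the RNAi interval, the value was at least 38.5-fold lower in xrn1 RNAi. The upper end of the exact Poisson interval for 0 reads is a value of 0.281, which would give a smaller bound. The libraries without the pathway had 3 reads in xrn1 and 148 in WT. All 4 libraries thus went with their genotype labels at this gene.

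On the deposited scale more genes were higher in xrn1 RNAi than were lower. Differences are of log2(value + 3.18), a pseudocount that damps the differences of low genes. A gene was counted where 1 of the 2 libraries reached 3.18, and was called higher or lower at a difference of 2-fold or more. Of 5084 counted genes 1681 were higher, 33.1% of them, and 599 were lower, 11.8%. The median log2 difference was 0.54, against 0.51 for xrn1 over WT, where 33.2% of 5507 counted genes were higher and 9.9% lower. This balance rests on the scale. Size factors moved every xrn1 RNAi over RNAi log2 difference down by 0.76 before the pseudocount, which left 1057 higher genes, 19.9% of 5304, and 1283 lower genes, 24.2%, with a median of -0.06. Differences of lists and classes are therefore best read against the median of all counted genes. Of the 1681 higher genes 403 were below the pseudocount in RNAi, so that their fold rests on fewer than 10 reads there. Of the 599 lower genes 30 were below it in xrn1 RNAi.

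**Figure D1:**
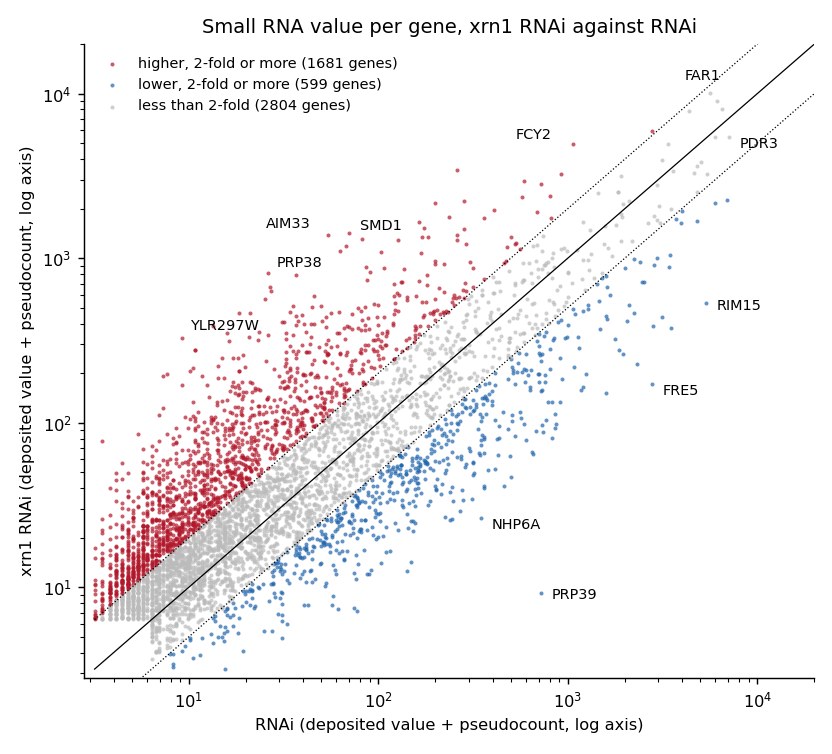
Value per gene in xrn1 RNAi (vertical axis) against RNAi (horizontal axis), both as the deposited value plus the pseudocount of 3.18 on log axes, 1 point per counted gene. The solid line marks equal values and the dotted lines 2-fold differences; 1681 red points lie above them and 599 blue points below, with PRP39 farthest below.

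The 12 highest differences were taken among genes with a value of 31.8 or more in 1 of the libraries. Their roles were spread over RNA processing, transcription and metabolism. A gene could pass this limit through xrn1 RNAi alone, and the reads in RNAi ran from 13 to 160 among the 12. YLR297W, an uncharacterized gene at chrXII:724044-724433, had a value of 326 in xrn1 RNAi and 6.03 in RNAi, and 288 in xrn1 and 115 in WT. It was 54.0-fold higher in xrn1 RNAi (interval 34.5 to 89.7), with 4272 reads against 19. PRP38, a subunit of the spliceosome that is needed for its activation, had 812 in xrn1 RNAi and 22.9 in RNAi, and 86.9 in xrn1 and 13 in WT. The fold was 35.5 (28.2 to 45.4), and xrn1 RNAi had the highest value of the 4 libraries. POP4, a protein of the tRNA-processing enzyme RNase P, had 188 in xrn1 RNAi and 4.13 in RNAi, with 86.9 in xrn1 and 36 in WT. RPB5, a subunit shared by the nuclear RNA polymerases, had 194 in xrn1 RNAi and 4.45 in RNAi, with 214 in xrn1 and 23 in WT. Here the deposited values of both deletion libraries lay close together, well above the other 2. The closeness rests on the deposited scale, since the size factors were 0.70 for xrn1 RNAi and 2.14 for xrn1. EXG1, a glucanase of the cell wall, had 274 in xrn1 RNAi and 7.62 in RNAi, and 925 in xrn1 and 169 in WT.

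AIM33, whose product is a cytochrome b5 reductase, had the most reads in RNAi among these 12 rises. It had a value of 1377 in xrn1 RNAi and 50.8 in RNAi, and 104 in xrn1 and 76 in WT. The rise was 27.1-fold (23.2 to 31.9), with 160 reads in RNAi, while xrn1 over WT differed by a log2 of only 0.44. Among genes with 100 reads or more in both libraries, INH1, the inhibitor of the mitochondrial ATP synthase, followed at 790 in xrn1 RNAi and 33.7 in RNAi, 23.5-fold higher (19.4 to 28.7). SMD1, a core protein of the spliceosomal snRNPs, had 1414 in xrn1 RNAi and 67.0 in RNAi, 21.1-fold higher (18.4 to 24.3). DSE2, a daughter-cell glucanase-like protein that acts in cell separation, had 1099 in xrn1 RNAi and 59.4 in RNAi. MIC26, of the complex that shapes mitochondrial cristae, had 1181 in xrn1 RNAi and 64.2 in RNAi. The other genes of the highest 12 were YBR071W, YOR062C, the export factor MTR2, the glycine decarboxylase subunit GCV3, the nucleotide hydrolase HNT1 and the mitochondrial iron carrier MRS3. Of the 12, 10 were also 2-fold or more higher in xrn1 over WT, beside 33.2% of all genes counted there. In 1 of the 12, PRP38, the deposited RNAi value lay above that of WT, though the ranking favours a low RNAi value. This count rests on the scale, since size factors of 0.41 for RNAi and 1.55 for WT would raise RNAi values against WT.

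In all of the 12 lowest differences the RNAi value was the highest of the 4 libraries. Genes ranked by a low value against RNAi lean towards a high RNAi value by the choice, so nothing is read from this pattern. PRP39, a U1 snRNP protein at chrXIII:181474-183363, had a value of 6.02 in xrn1 RNAi and 716 in RNAi, and 60.8 in xrn1 and 67 in WT. It was 119-fold lower in xrn1 RNAi (interval 95.0 to 151), with 79 reads against 2254, which was by far the largest fall among these genes. FRE5, a putative ferric reductase, had 168 in xrn1 RNAi and 2770 in RNAi, with 10.9 in xrn1 and 107 in WT, a 16.5-fold fall (15.8 to 17.3). NHP6A, a high-mobility group chromatin protein, had 23.0 in xrn1 RNAi and 344 in RNAi, with 109 in xrn1 and 27 in WT. Its small RNAs therefore differed in opposite directions with and without the pathway, a contrast that was not tested. RFC1, the large subunit of the clamp loader of DNA replication, had 9.38 in xrn1 RNAi and 138 in RNAi. PPN1, a polyphosphatase, had 224 in xrn1 RNAi and 2309 in RNAi, with 171 in xrn1 and 170 in WT, so that the deletion made almost no difference where the pathway was absent. The others were CRR1 and SMK1, a wall protein and a kinase of spore formation, the regulator MGA1, DUR12 of urea breakdown, PET122, an activator of mitochondrial translation, the peroxisomal lipase LPX1 and the peptidyl-tRNA hydrolase PTH1. Of these 12, 6 were also 2-fold or more lower in xrn1 over WT, beside 9.9% of all genes counted there. NHP6A alone was 2-fold or more higher, beside 33.2%.

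**Figure D2:**
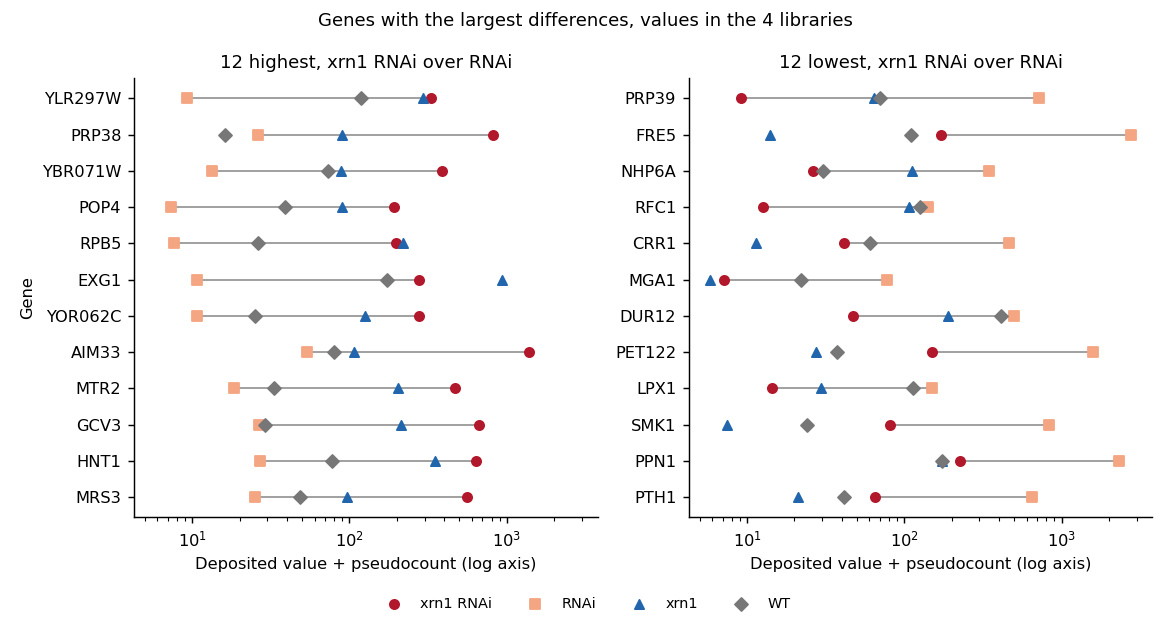
Deposited value plus 3.18 (log axis) in xrn1 RNAi, RNAi, xrn1 and WT for the 12 genes with the highest and the 12 with the lowest log2 difference in xrn1 RNAi over RNAi, 1 library per point; a grey line joins xrn1 RNAi and RNAi. In the right panel the RNAi point lies farthest right for every gene, with 716 for PRP39 and 2770 for FRE5, a position that the ranking itself favours.

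Across all genes the difference made by the deletion with the pathway ran only loosely with that made without it. Over the 5052 genes counted in both, which share no library, Pearson's r was 0.33 and Spearman's rho 0.32, as a description across genes that are not independent of each other. Of the genes higher in xrn1 RNAi over RNAi, 47.2% were also higher in xrn1 over WT, and of those higher in xrn1 over WT, 43.4% were also higher in xrn1 RNAi over RNAi. Of the lower genes 16.7% were also lower in xrn1 over WT, and the share the other way round was 18.3%. The shares of 47.2% and 16.7% stand beside the 33.2% higher and 9.9% lower over all genes in xrn1 over WT, and the shares of 43.4% and 18.3% beside the 33.1% and 11.8% in xrn1 RNAi over RNAi.

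SMD1 and PRP38, both spliceosomal and both among the strongest rises, are convergent neighbours on chromosome VII whose coding sequences overlap at their ends. Their junction is shown, with those of 2 other close convergent pairs that rose together, because it shows how little sequence separates the genes. Each is the plus strand of the RefSeq R64 genome, read 5′ to 3′. The capitals mark the stop codon of the plus-strand gene and, as its reverse complement, that of the minus-strand gene. In SMD1 and PRP38, and again in YML096W and RAD10, the stop codons lie next to each other in an overlap of 6 bases, while POP4 and SHG1 are 9 bases apart.
SMD1 (plus strand) and PRP38 (minus strand), chrVII:636117-636182: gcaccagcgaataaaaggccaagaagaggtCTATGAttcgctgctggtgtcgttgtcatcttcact
POP4 (plus strand) and SHG1 (minus strand), chrII:729695-729763: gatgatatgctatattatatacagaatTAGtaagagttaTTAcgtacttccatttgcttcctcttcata
YML096W (plus strand) and RAD10 (minus strand), chrXIII:81451-81516: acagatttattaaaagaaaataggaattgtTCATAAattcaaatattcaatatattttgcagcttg

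SHG1, a subunit of the histone methyltransferase complex COMPASS, had a value of 34.5 in xrn1 RNAi and 2.54 in RNAi, and its partner POP4 188 in xrn1 RNAi and 4.13 in RNAi. YML096W, a putative asparagine synthase, had 917 in xrn1 RNAi and 196 in RNAi. RAD10, a nuclease subunit of DNA repair, had 403 in xrn1 RNAi and 27.6 in RNAi. Both members of each of these pairs were thus higher in xrn1 RNAi. The sources used here do not say how the counting treated strand or reads that lie in an overlap, so reads of facing genes may not be told apart.

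Over the whole genome, the log2 differences of close convergent neighbours were correlated in xrn1 RNAi over RNAi. Among 688 counted pairs of adjacent convergent genes that overlapped or lay under 250 bases apart in R64, the 2 genes' differences had a Pearson r of 0.33 and a Spearman rho of 0.33. In 169 pairs, 24.6%, both genes were higher, in 10, 1.45%, both were lower and in 24 they went opposite ways. Both genes were lower in 3.43% of 175 close divergent and 3.05% of 361 close tandem pairs. For 500 convergent pairs at 250 bases or more the share was 2%. In these other classes 9, 27 and 28 pairs, in the same order, went opposite ways. None of these shares was tested. Genes with a close convergent neighbour were singly higher in 43.2% of cases, beside 33.1% of all counted genes. That alone would raise the share of pairs with both higher, by an amount that was not computed. Both genes were higher in 21 of 175 close divergent pairs, in 37 of 361 close tandem pairs and in 72 of 500 convergent pairs at 250 bases or more, shares of 14.4% or less, which were not tested against the 24.6%. Among the 196 pairs in which each gene reached a value of 31.8 in at least 1 of the 2 libraries the r was 0.50. The same filter gave an r of 0.29 over 33 close divergent pairs and 0.20 over 83 close tandem pairs. For xrn1 over WT the r over 802 such pairs was 0.06. These correlations are descriptions across genes in single libraries, and the pairs share library, depth and, where transcripts run into each other, possibly reads.

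Orientation and distance both went with the size of the correlation. Close divergent neighbours, which share an upstream region, had an r of 0.22 over 175 pairs, and close tandem neighbours 0.10 over 361 pairs. At 250 bases or more the r was 0.13 over 500 convergent pairs, 0.07 over 1022 divergent and 0.05 over 1810 tandem pairs. The order of the orientations did not hold at the shortest distance. Under 100 bases the r was 0.44 over 155 convergent pairs, 0.63 over 11 divergent pairs and 0.66 over 26 tandem pairs. The differences between orientations and between the 2 comparisons were not tested, and the limit of 250 bases was chosen after several distances had been examined.

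**Figure D3:**
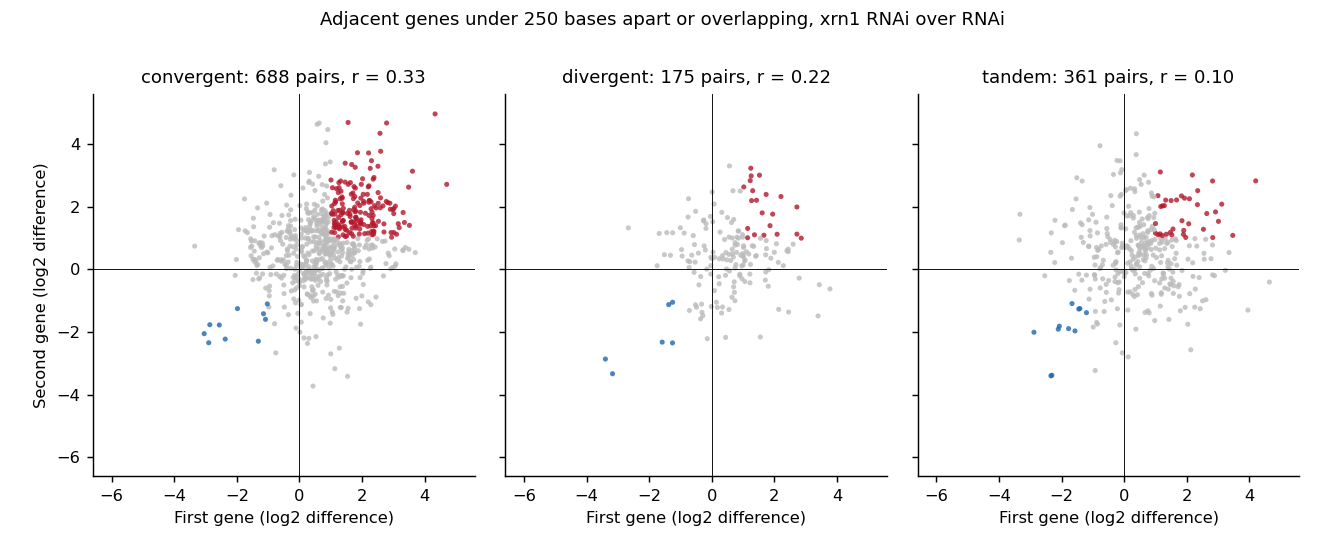
Log2 difference in xrn1 RNAi over RNAi of the first gene (horizontal axis) and the second gene (vertical axis, in chromosomal order) of adjacent pairs that overlap or lie under 250 bases apart, 1 point per pair. Red points are pairs with both genes 2-fold or more higher and blue points pairs with both lower; the convergent panel holds 169 red and 10 blue points among 688 pairs and has the largest r, 0.33.

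The levels of close convergent genes ran together where the pathway was present and hardly where it was absent. The r of their log2 values was 0.32 in xrn1 RNAi and 0.32 in RNAi, and 0.04 in xrn1 and -0.01 in WT. At 250 bases or more the r of convergent pairs was 0.17 in xrn1 RNAi and 0.14 in RNAi, and 0.26 in xrn1 and 0.20 in WT. The r of close convergent pairs was thus about as large in RNAi as in xrn1 RNAi. For close divergent pairs it was 0.026 in xrn1 RNAi and 0.25 in RNAi, and 0.052 in xrn1 and 0.00046 in WT. For close tandem pairs it was 0.12 in xrn1 RNAi and 0.16 in RNAi, and 0.20 in xrn1 and 0.14 in WT.

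Genes with a close convergent neighbour had a larger share of higher genes than genes without one, a contrast that was not tested. Of 1503 counted genes with such a neighbour 650 were higher, 43.2%, and 110 lower, 7.32%, with a median log2 difference of 0.82. Of 1139 whose convergent neighbour lay at 250 bases or more, 31.5% were higher and 10.4% lower, with a median of 0.54. Of 2425 with none next to them, 27.7% were higher and 14.6% lower, with a median of 0.36. The background was 33.1% higher and 11.8% lower. For xrn1 over WT the medians of the same 3 classes were 0.52, 0.59 and 0.45, a narrower range. With size factors the xrn1 RNAi over RNAi medians were 0.28, -0.06 and -0.28, in the same order.

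Further convergent pairs in which both genes rose, chosen after their values were seen, had roles with no shared theme. CKA2, a catalytic subunit of casein kinase 2, had a value of 157 in xrn1 RNAi and 20.01 in RNAi, and its neighbour YOR062C 273 in xrn1 RNAi and 7.62 in RNAi. CYT2, which attaches heme to cytochrome c1, had 210 in xrn1 RNAi and 7.30 in RNAi, and CAB3, of coenzyme A synthesis, 34.7 in xrn1 RNAi and 3.18 in RNAi. ISR1, a putative kinase, had 183 in xrn1 RNAi and 12.1 in RNAi, and YTH1, of the polyadenylation machinery, 47.2 in xrn1 RNAi and 2.54 in RNAi. CLB1 and CLB6, a pair of B-type cyclin genes 307 bases apart, had 175 and 350 in xrn1 RNAi, against 28.6 and 20.3 in RNAi. Pairs in which both fell were fewer. YLR177W, an uncharacterized gene, had 30.9 in xrn1 RNAi and 277 in RNAi, and TFS1, an inhibitor of a vacuolar protease, 7.62 in xrn1 RNAi and 41.6 in RNAi. RAD26, of transcription-coupled repair, had 17.2 in xrn1 RNAi and 102 in RNAi, and HUL4, a putative ubiquitin ligase, 9.45 in xrn1 RNAi and 55.9 in RNAi. LIF1, of DNA end joining, had 131 in xrn1 RNAi and 786 in RNAi, and MF(ALPHA)2, a pheromone gene, 98.6 in xrn1 RNAi and 345 in RNAi.

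Coding sequences that overlap on opposite strands moved together most closely. There were 23 such pairs in R64, of which 15 had both genes counted, with an r of 0.90 and a rho of 0.89 across pairs. In 5 both were higher, in 2 both were lower and in 0 did they go opposite ways. Over the 688 close convergent pairs both were higher in 24.6% and both lower in 1.45%, and the small counts were not tested against these shares. CTF19 and IRC15, which act at kinetochores and on microtubules and overlap by 27 bases, had values of 698 and 1142 in xrn1 RNAi, against 523 and 945 in RNAi. TAD3, of a tRNA deaminase, had 1970 in xrn1 RNAi and 402 in RNAi, and its partner NKP2 24.6 in xrn1 RNAi and 11.8 in RNAi. VPS75, a histone chaperone, had 1897 in xrn1 RNAi and 687 in RNAi, and CWC25, a splicing factor, 470 in xrn1 RNAi and 192 in RNAi. In xrn1 over WT the log2 differences were 2.15 for VPS75 and -1.07 for CWC25. No other overlapping pair named here went opposite ways there by 2-fold or more. VPS38 and DCR2, which overlap by 35 bases, had 170 and 279 in xrn1 RNAi, against 116 and 222 in RNAi. The partners of a pair could thus differ widely in level, as TAD3 and NKP2 did. Where reads of the overlap were counted for both genes, part of the likeness is built in.

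Some of the falls came in blocks of adjacent genes, while others had neighbours that rose. Of 23 counted neighbours of the 12 lowest genes, 6 were lower and 6 higher, and of the 6 that were convergent 0 were lower and 2 higher. Among the lower neighbours were NHP6A and SMK1, which are next to each other and both belong to the 12. Their place in this count was therefore fixed by the choice of genes. Of 20 counted neighbours of the 12 highest genes, 10 were higher and 0 lower. Over all counted genes 33.1% were higher and 11.8% lower. The neighbour counts are small and were not tested against these shares, and nothing is read from the higher neighbours of the lowest genes. On chromosome V a run of 4 neighbours fell together. YER152C had a value of 39.3 in xrn1 RNAi and 212 in RNAi, and its tandem neighbour PET122 147 in xrn1 RNAi and 1584 in RNAi. OXA1, the mitochondrial membrane insertase that is divergent to PET122 at 214 bases, had 161 in xrn1 RNAi and 1191 in RNAi. BEM2, a gene of bud emergence convergent to OXA1, had 55.2 in xrn1 RNAi and 195 in RNAi. In xrn1 over WT the log2 differences of these genes were 0.85 for YER152C, -0.43 for PET122, -0.06 for OXA1 and -0.41 for BEM2, none of them 2-fold. The divergent pair NHP6A and SMK1 fell together as well, with SMK1 at 78.0 in xrn1 RNAi and 826 in RNAi. PTH1 and its divergent neighbour GPI16, of the GPI-anchor transamidase, lay 190 bases apart. PTH1 had 61.5 in xrn1 RNAi and 648 in RNAi, and GPI16 36.9 in xrn1 RNAi and 358 in RNAi. By contrast PPN1 had a divergent neighbour, YHP1, at 105 in xrn1 RNAi and 10.5 in RNAi, and PRP39, CRR1, MGA1, DUR12 and PTH1 each had 1 neighbour that was 2-fold or more higher as well. For PRP39, MGA1 and DUR12 that neighbour lay below the pseudocount in RNAi. RRN11, 6880 bases from PRP39, had 7.16 in xrn1 RNAi and 0.953 in RNAi. SOL4, 1309 bases from MGA1, had 4.19 in xrn1 RNAi and 0.318 in RNAi. FTH1, next to DUR12, had 12.5 in xrn1 RNAi and 2.22 in RNAi.

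On chromosome XIV a run of 5 genes fell. SLA2, of endocytic actin patches, had 50.6 in xrn1 RNAi and 284 in RNAi, and ATG2, of autophagy, 41.9 in xrn1 RNAi and 153 in RNAi. ZWF1, the first enzyme of the pentose phosphate pathway, had 52.1 in xrn1 RNAi and 146 in RNAi. NAR1, of iron-sulfur protein assembly, had 161 in xrn1 RNAi and 631 in RNAi, and the peptidase LAP3 137 in xrn1 RNAi and 284 in RNAi. The largest block of rises was also on chromosome XIV, with 8 adjacent genes. In it YNL058C had 433 in xrn1 RNAi and 49.5 in RNAi, and POR1, the porin of the outer mitochondrial membrane, 163 in xrn1 RNAi and 29.9 in RNAi. NOP2, an rRNA methyltransferase, had 26.4 in xrn1 RNAi and 1.91 in RNAi, and the other 5 genes were YDJ1, MTQ1, GCD10, ARP5 and OCA2. In all, 12 runs of 3 or more adjacent lower genes were found, none longer than 5 genes. Higher runs of 3 genes numbered 87, of 4 genes 28 and of 5 genes 11, with 1 of 6 genes and this 1 of 8. How many runs the share of higher genes would give by itself was not computed.

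**Figure D4:**
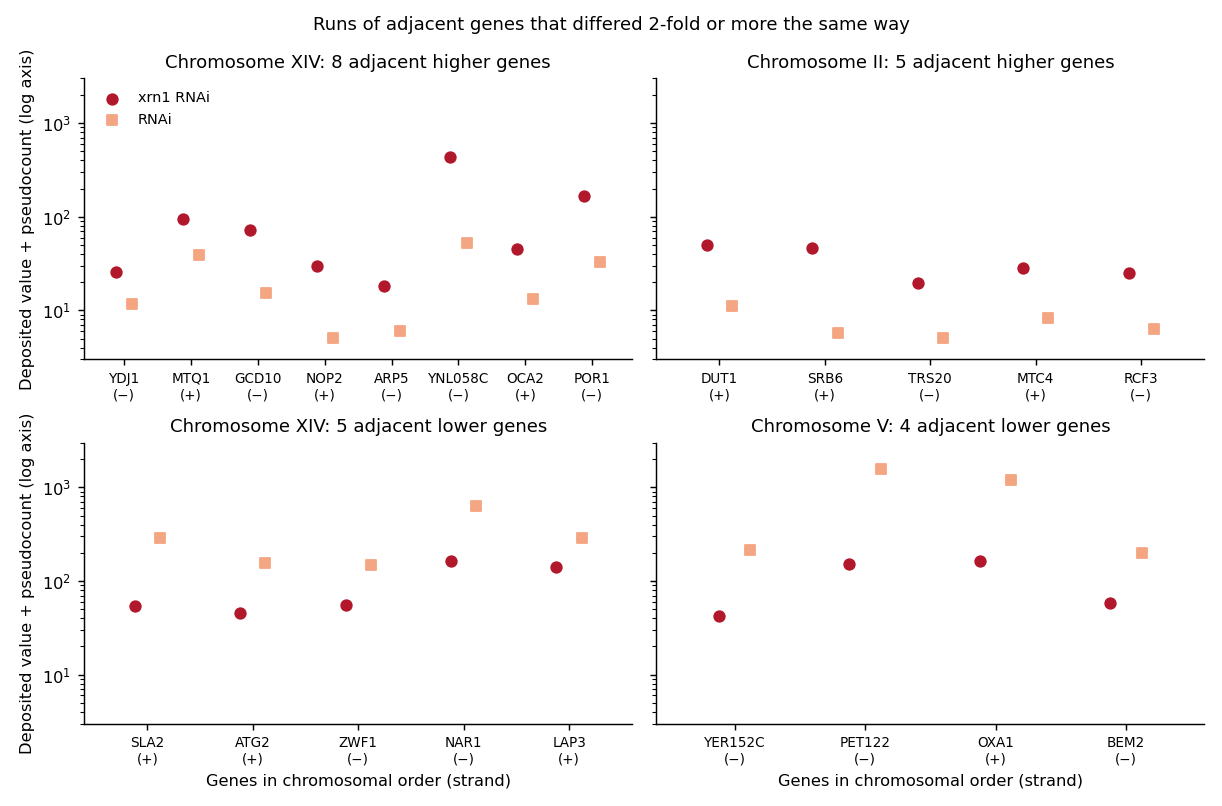
Deposited value plus 3.18 (log axis) in xrn1 RNAi and RNAi for the genes of 4 runs of adjacent genes in chromosomal order, with strand under each name; 1 library per point. In the upper panels every xrn1 RNAi point lies above its RNAi point, as for YNL058C at 433 and 49.5, and in the lower panels every one lies below, as for PET122 at 147 and 1584.

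Of the 10 highest genes of xrn1 RNAi 2 were 2-fold or more higher and 0 lower, and of the 10 highest of RNAi 0 were higher and 3 lower, with 5 genes in both sets. Genes chosen by a high value in 1 library lean towards that library by the choice, so nothing is read from these counts beside the 33.1% and 11.8% over all genes. FAR1, an inhibitor of the cell-cycle kinase in mating cells, was highest in xrn1 RNAi, with a value of 10138 in xrn1 RNAi and 5624 in RNAi. MEP3, an ammonium permease, had 8976 in xrn1 RNAi and 6130 in RNAi, and MCH5, a riboflavin transporter, 8057 in xrn1 RNAi and 6462 in RNAi. PDR3, a regulator of drug resistance, was highest in RNAi, with 5450 in xrn1 RNAi and 7073 in RNAi. Per kilobase of coding sequence TRP1, of tryptophan synthesis, stood above all of these, at 8077 in xrn1 RNAi and 8836 in RNAi. Without the pathway the values of these 5 genes were lower, with FAR1 at 916 in xrn1 and 183 in WT. The higher 2 were the vacuolar aminopeptidase APE1, at 5877 in xrn1 RNAi and 2783 in RNAi, and FCY2, a purine-cytosine permease, at 4902 in xrn1 RNAi and 1060 in RNAi. Of the 3 that were lower, RIM15, a kinase of entry into stationary phase, had 530 in xrn1 RNAi and 5332 in RNAi, 10.1-fold lower (9.78 to 10.3). HMS2 had 2246 in xrn1 RNAi and 6918 in RNAi, and SWE1, a mitotic inhibitor kinase, 2169 in xrn1 RNAi and 5967 in RNAi.

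The 100 highest genes held 37.6% of the reads in xrn1 RNAi and 44.2% in RNAi, while the 10 highest held 11.2% in xrn1 RNAi and 10.5% in RNAi. Of the 100 highest, 53 genes were shared. When nuclear genes were split into 5 equal classes by their mean log2 value over all 4 libraries, the median log2 difference was 0.67, 0.83, 0.64, 0.40 and -0.0022 from the lowest to the highest class. In the highest class 290 of 1154 genes were higher and 288 lower. In the lowest class 166 of 519 counted genes were higher and 29 lower, but only those 519 of its 1154 genes passed the filter on low values. Without the filter the median of this class was 0.28, below the 0.44 of all genes. Low values are damped by the pseudocount, and the part of depth in this pattern was not tested.

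Genes of RNA decay were mixed. List counts are read against the 33.1% higher and 11.8% lower over all counted genes, or the 19.9% and 24.2% with size factors. Of 18 counted genes of decapping and 5′ to 3′ decay, 9 were higher and 2 lower, XRN1 being 1 of these, with a median log2 difference 0.46 above that of all genes. The nuclear relative of Xrn1, RAT1, went down, with a value of 86.5 in xrn1 RNAi and 256 in RNAi, while its partner RAI1 went up, with 21.0 in xrn1 RNAi and 4.13 in RNAi. DXO1, a decapping nuclease, had 11.5 in xrn1 RNAi and 0.953 in RNAi, only 3 reads in the RNAi library. DCP2, the catalytic decapping subunit, had 23.6 in xrn1 RNAi and 6.03 in RNAi. Of 13 deadenylation genes 5 were higher and 1 lower, shares near those over all genes. MOT2, a ubiquitin ligase of the CCR4-NOT complex, had 315 in xrn1 RNAi and 20.01 in RNAi, NOT5 of the same complex had 461 in xrn1 RNAi and 53.0 in RNAi, and CDC36 had 122 in xrn1 RNAi and 14.3 in RNAi. Of 19 genes of the nuclear exosome and its cofactors, which degrade RNA from the 3′ end, 9 were higher and 3 lower, or 4 and 4 with size factors, with SKI6 at 98.02 in xrn1 RNAi and 8.89 in RNAi. Nonsense-mediated decay and the Ski complex gave 1 higher and 1 lower of 9. NMD2 had 37.96 in xrn1 RNAi and 9.84 in RNAi, and SKI3 58.0 in xrn1 RNAi and 154 in RNAi.

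Genes for processing and transcribing RNA included strong rises and the largest fall. Of 46 counted splicing genes 20 were higher and 4 lower, with a median of 0.68. Here 10 of the 46 were counted only through xrn1 RNAi, and with size factors 15 were higher and 7 lower, with a median of 0.14. The list held both PRP38 and SMD1 among the rises and PRP39 as the largest fall. Of 11 genes of RNase P and its relative RNase MRP, 6 were higher and 1 lower, with a median of 1.61, or 1.24 with size factors, where 6 were higher and 2 lower. POP8 had 84.7 in xrn1 RNAi and 10.16 in RNAi, and SNM1, which belongs to RNase MRP, 213 in xrn1 RNAi and 30.8 in RNAi, while POP3 had 67.9 in xrn1 RNAi and 140 in RNAi. Of 29 RNA polymerase subunits 15 were higher and 2 lower, with a median 0.46 above that of all genes. Of these 29, however, 9 were counted only through xrn1 RNAi and could hardly be lower, and with size factors 9 were higher and 6 lower. RPC25 of RNA polymerase III had 884 in xrn1 RNAi and 82.6 in RNAi, and RPB8, shared by the nuclear polymerases, 80.3 in xrn1 RNAi and 5.72 in RNAi. In the RNA export list MTR2 rose, at 462 in xrn1 RNAi and 15.2 in RNAi, while THO2 of the THO complex fell, at 48.3 in xrn1 RNAi and 374 in RNAi. All the lists were chosen with earlier results of these data known, and none was tested.

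Proteasome genes and nuclear genes of the respiratory chain had more rises than falls, though for the proteasome the share of rises rests on the scale. Of 34 counted proteasome genes 17 were higher and 0 lower, with a median of 1.04, 0.49 above that of all genes; with size factors 6 of 35 were higher, 17.1% beside 19.9% over all genes, and 2 lower. PUP2, a core-particle subunit, had 397 in xrn1 RNAi and 37.5 in RNAi, and UMP1, which assists assembly, 68.3 in xrn1 RNAi and 13.7 in RNAi. Of 31 counted nuclear genes of the respiratory chain 18 were higher and 0 lower, with a median of 1.32, though 13 of the 31 were counted only through xrn1 RNAi and could hardly be lower. QCR9 of complex III had 99.7 in xrn1 RNAi and 7.62 in RNAi, and COX5A of cytochrome c oxidase 135 in xrn1 RNAi and 15.9 in RNAi. Mitochondrial ribosomal proteins gave 24 higher and 1 lower of 60, 40.0% and 1.67%, of which 26 were counted only through xrn1 RNAi. MRPL38 had 175 in xrn1 RNAi and 17.8 in RNAi. Histone genes, whose copies are near-identical so that reads could map to more than 1 of them, had low values. HHT2, a histone H3 gene, had 96.6 in xrn1 RNAi and 16.2 in RNAi, and the other 5 that were counted reached the pseudocount only in xrn1 RNAi.

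Cytoplasmic ribosomal protein and glycolytic genes had low medians with the pathway and high medians without it. Of 46 small-subunit genes 7 were higher and 0 lower, with a median of 0.38, and of 63 large-subunit genes 13 were higher and 1 lower, with a median of 0.27, both below the 0.54 of all genes. With size factors the balance of calls turned, to 4 higher and 5 lower in the small subunit, 7.84% and 9.80% of 51. In the large subunit it turned to 9 higher and 13 lower, 12.5% and 18.1% of 72. Both kinds of call were thus rarer than the 19.9% higher and 24.2% lower over all genes with size factors. With a filter at a value of 31.8 only 5 and 12 of these genes were counted, and their medians of 1.498 and 0.88 lay above the 0.46 of all genes there. In xrn1 over WT their medians were 1.43 and 1.52. RPS18A, with a close copy elsewhere in the genome, had 46.1 in xrn1 RNAi and 1.59 in RNAi, and RPL22B 134 in xrn1 RNAi and 12.7 in RNAi. Core glycolysis had 1 higher and 4 lower of 16, with a median of -0.42, or 0 higher and 9 lower with a median of -1.07 with size factors, while for xrn1 over WT the median was 2.02. PGI1, which isomerizes glucose 6-phosphate, had 44.7 in xrn1 RNAi and 311 in RNAi, against 381 in xrn1 and 146 in WT. CDC19, pyruvate kinase, had 258 in xrn1 RNAi and 730 in RNAi, against 1627 in xrn1 and 370 in WT. The difference between the 2 comparisons was not tested for these lists.

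Nutrient, meiotic and surface genes went both ways. GAL1, galactokinase, had 426 in xrn1 RNAi and 1607 in RNAi, and GAL80, which holds the galactose activator in check, 243 in xrn1 RNAi and 905 in RNAi. MTH1, a glucose-signalling repressor on the same list, had 536 in xrn1 RNAi and 174 in RNAi. Of 10 nucleobase and thiamine permeases 2 were higher and 5 lower, with a median of -0.64. FCY21, which has close copies, had 1673 in xrn1 RNAi and 4819 in RNAi, the reverse of its relative FCY2. The glucose transporters HXT2 and HXT3, members of a family of near-identical copies, had 1335 and 349 in xrn1 RNAi, against 180 and 57.5 in RNAi. Sporulation genes gave 6 higher and 7 lower of 23, with a median of -0.32, or 0.041 without the filter on low values, against -1.45 for xrn1 over WT. Iron uptake gave 10 higher and 8 lower of 29, shares of 34.5% and 27.6%, and with size factors 3 higher and 12 lower. FRE3, a ferric reductase, had 154 in xrn1 RNAi and 1169 in RNAi, while CTH1, which binds messenger RNAs when iron changes, had 232 in xrn1 RNAi and 22.2 in RNAi. Cell wall genes gave 23 higher and 11 lower of 52, shares of 44.2% and 21.2%, but 14 higher and 19 lower with size factors. Among them was SUN4, of septum assembly, at 1299 in xrn1 RNAi and 78.4 in RNAi. ADH2, an alcohol dehydrogenase with a near-identical relative, had 152 in xrn1 RNAi and 13.3 in RNAi.

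**Figure D5:**
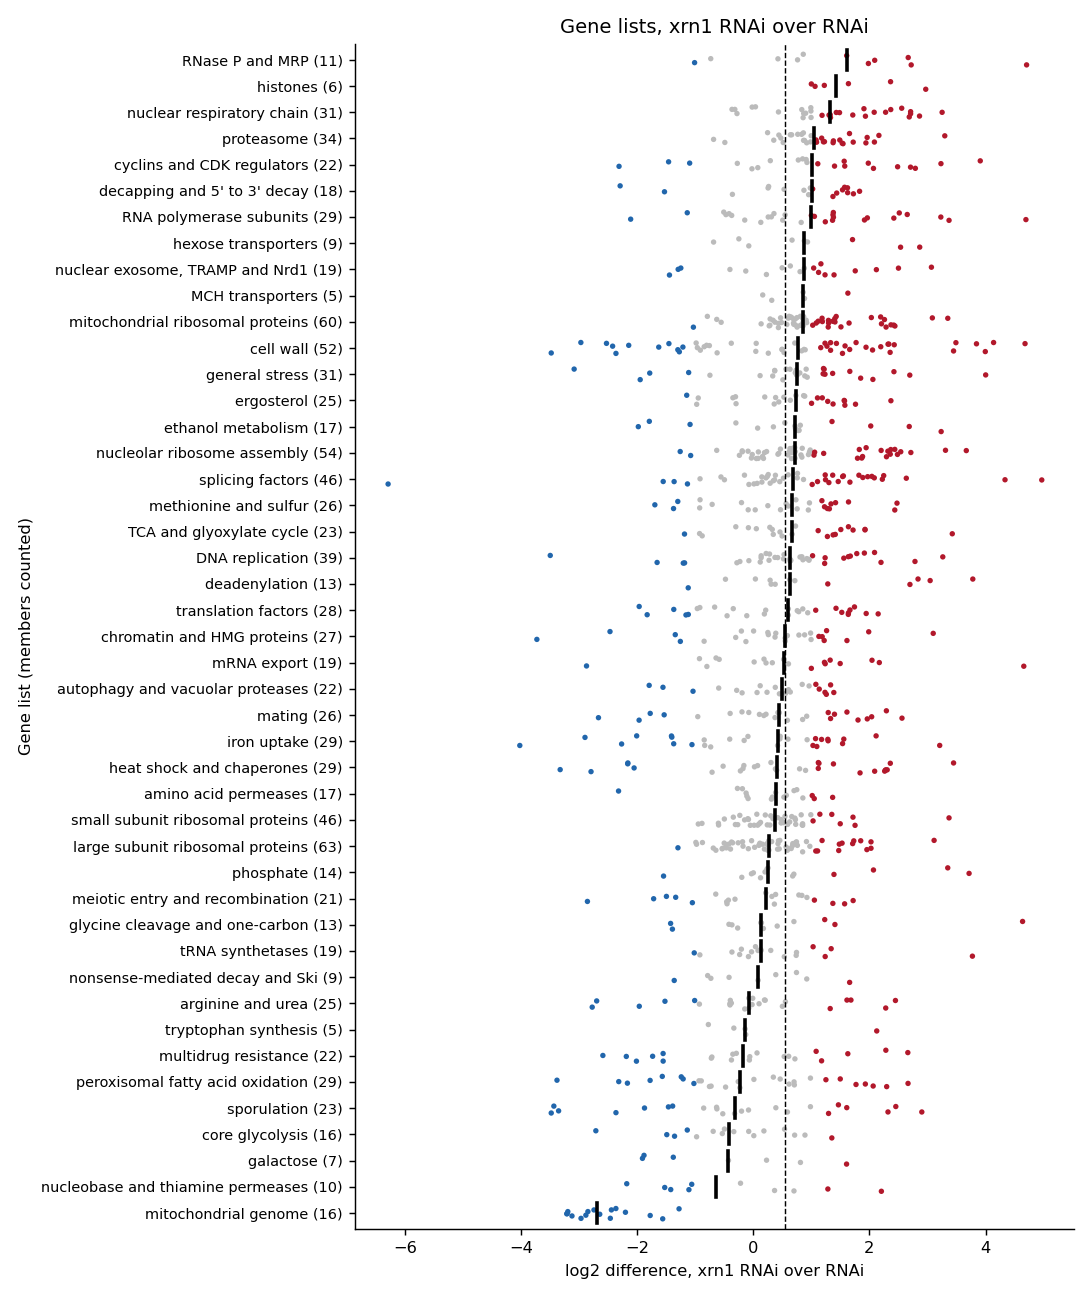
Log2 difference in xrn1 RNAi over RNAi of the counted members of each gene list with 5 or more of them, ordered by median. Each point is a gene, red at 2-fold or more higher and blue at 2-fold or more lower, black bars are list medians and the dashed line is the median of all counted genes, 0.54; the mitochondrial genome lies lowest, at -2.69.

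Genes of the mitochondrial genome were lower throughout. They took 0.0394% of the reads in xrn1 RNAi and 0.361% in RNAi, against 33.1% in xrn1 and 26.7% in WT. All 16 counted members were lower, with a median log2 difference of -2.69, beside a median of 0.84 for xrn1 over WT. COX1, of cytochrome c oxidase, had a value of 49.2 in xrn1 RNAi and 406.5 in RNAi, COB of complex III had 9.53 in xrn1 RNAi and 88.3 in RNAi, and COX2 had 4.65 in xrn1 RNAi and 39.4 in RNAi. COX1 and COB hold the intron-encoded genes AI1 to BI4 within them, so these values share reads and the 16 are not independent. Whether the share of mitochondrial RNA differed between the RNA preparations was not tested.

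Genes with introns and genes of single chromosomes were compared with the rest. Counted intron-holding genes other than those of ribosomal proteins had a median log2 difference of 0.97, with 66 of 141 higher and 7 lower, against 0.54 for nuclear genes without introns. Without the filter on low values these medians were 0.69 and 0.45. With the ribosomal protein genes included the median of intron-holding genes was 0.73, or 0.43 without the filter, just below that of genes without introns. In xrn1 over WT the medians of the first 2 classes were 0.74 and 0.49. Medians by nuclear chromosome lay between 0.25 on chromosome III and 0.74 on chromosome IV, except on chromosome I. There the median was -0.28, with 16 higher and 20 lower of 78 genes. In xrn1 over WT chromosome I had a median of 0.43. The 4 identifiers beginning with R00, which have no match in R64, were not counted, as none reached the pseudocount in either library.

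A test that uses both backgrounds as replicates asks another question, what the deletion did in common with and without the pathway. The quasi-likelihood test of edgeR in an additive model of the 4 libraries, with 1 residual degree of freedom, called 10 genes higher, 0.184% of 5429 tested, and 13 lower, 0.239%, at a Benjamini-Hochberg adjusted p under 0.05. At an unadjusted p under 0.05 it had 473 higher and 255 lower. It says nothing of the effect in cells with RNAi alone, for which there is 1 library on each side.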

How the data were processed

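RNA of 10 to 40 nucleotides was gel- or device-purified and made into small RNA libraries, per the labels' protocols, 1 for each of 4 genotypes. Cutadapt and Bowtie are named in the submitters' processing notes; versions, genome build, annotation, strand and multi-mapping treatment and the scaling rule are not stated in these sources. The WT column holds deposited counts of reads per gene. The other 3 hold a deposited signal, whole reads times 1 factor: 100% of values were whole multiples of the smallest, to a tolerance of 1e-06. Reads were recovered by that division. Depth per library is given with the report, and intervals and the floor of 3 reads cover counting error only.

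Symbols, coordinates, neighbours and sequences came from RefSeq R64, which matched 5789 identifiers; 9 had no match. Neighbours are adjacent listed genes, and other transcripts between them were not considered. The pseudocount of 3.18 is the 10th percentile of non-zero values over the 4 libraries. Ratios carry exact Clopper-Pearson intervals. Only 1 column held counts, so the deposited scale was kept, and size factors are medians of ratios over nuclear genes. Python 3.11.15 with pandas 2.3.3 and scipy 1.17.1, and edgeR 4.0.16 in R 4.3.3, were used after being tested on simulated data.

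The members, the 47 gene lists and the rules were chosen with earlier results of these data known. Genes were named by rule: XRN1, the 12 highest and 12 lowest differences at a value of 31.8 or more, the 5 highest and 5 lowest ratios with 100 reads in both, the 10 highest values per library, the 3 largest differences per list and 6 overlapping pairs. Leading convergent pairs, runs, their members, members of a list beyond its first 3, neighbours of extreme genes and the 250-base limit were chosen after values were seen. Alternatives were other pseudocounts, filters, scalings and distances.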

Additional observations from a re-analysis of the deposited data

Results flagged for a closer look

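These results went in opposite directions in xrn1 RNAi over RNAi and in xrn1 over WT, by 2-fold or more on both sides for a named gene, or by 0.5 or more on the log2 scale for a list's median. The limits were set after values were seen, and with 1 library per genotype no difference between the comparisons was tested. For NHP6A the log2 difference was -3.73 with the pathway and 1.89 without it. For TFS1 it was -2.05 with the pathway and 1.28 without it. For ZWF1 it was -1.44 with the pathway and 1.03 without it. For CWC25, which overlaps VPS75 by 4 bases, it was 1.28 with the pathway and -1.07 without it. For TGL2, a lipase in a run of 6 higher genes on chromosome IV, it was 1.36 with the pathway and -1.02 without it, with 13 reads in RNAi. With size factors the differences with the pathway were 0.53 for CWC25 and 0.95 for TGL2, both under 2-fold. The size factors were 2.14 for xrn1 and 1.55 for WT, so they also lower every difference without the pathway. The rises of TFS1 and ZWF1 without the pathway may thus not reach 2-fold on that scale, which was not computed here. Hexose transporters had a median of 0.88 over 9 counted genes with the pathway and -0.63 over 10 without it. That contrast rests on the setting, since the median with the pathway was 0.31 without the filter on low values and 0.091 with size factors. The mitochondrial genome had a median of -2.69 over 16 counted genes with the pathway and 0.84 over 19 without it, and its genes share reads where they are nested.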

How the results depend on the processing

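No named gene and no list or class median that was 2-fold or more changed sign under another pseudocount, filter or scaling, where the gene still passed the filter. The counts did move. With a pseudocount of 31.8 there were 592 higher and 344 lower genes with a median of 0.17, and with 0.318 the median was 0.69. Without a filter the median was 0.44, and with a filter at 31.8 there were 941 higher genes with a median of 0.46 and an r of 0.50 for close convergent pairs. With size factors there were 1057 higher and 1283 lower genes with a median of -0.062, and 52 medians of lists, classes or all genes moved, as 1 factor per library shifts every gene. Of 74 list and class medians, all that changed sign being under 2-fold, 30 did so with size factors, 7 with the filter at 31.8 and 3 without a filter. The r of close convergent pairs stayed between 0.28 and 0.50 in the settings tried, which were added after the data were seen. No paired analysis was possible because the labels carry no replicate numbers, and no library could be left out of a comparison of 1 against 1. The shallower RNAi library limits every fold of genes with few reads there.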
